A study of Mus musculus with 40 samples.

Results

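The genes described here are the nuclear-encoded genes of oxidative phosphorylation, followed through RNA sequencing of mouse CD4 T cells from spleen. Members were chosen by name alone. They are the genes of the deposited RNA table whose symbol begins with Nduf, Cox4 to Cox8, Uqcr or Atp5, or is Sdha, Sdhb, Sdhc or Sdhd, without symbols that hold -ps. The rule found 93 of the 39179 genes in the table. They comprise 36 subunits of complex I, 7 assembly factors of complex I, 4 subunits of complex II, 8 of complex III, 20 of complex IV, 16 of complex V and 2 factors named after the ATP synthase, Atp5s and Atp5sl. Ndufa4 and Ndufa4l2 were counted with complex IV, where the Ndufa4 protein is found. Of the 93, 88 passed a filter on low values (a normalised read count of at least 10 in at least 2 libraries). Cox7b2, Cox8b, Cox8c, Ndufa4l2 and Atp5l2 did not pass it and were not tested. Cox4i2 passed it through the Th2 WT libraries alone, so its calls between Th2 WT and other groups, which are included in the counts of members, follow from the filter. Cox6a2 reached 10 only in cultured cells. Any call of it that sets naive beside Th2 cells is likewise included in the counts and follows from the filter.

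All cells came from C57BL/6 mice that were Setdb1+/+, called WT here, or Setdb1-/-, called KO. Setdb1 encodes an enzyme that methylates lysine 9 of histone H3. The RNA libraries number 18 in 6 groups. Naive CD4 T cells at culture day 0 gave 4 WT and 3 KO libraries. Th2 cells, at culture day 6, gave 3 WT and 3 KO libraries. They were activated on 10 ug/mL anti-CD3 with 1 ug/mL anti-CD28, 50 ng/mL IL-4 and an antibody against IFN-gamma, then replated with 30 IU/mL IL-2. Th2-Th1 cells were washed Th2 cells moved to a Th1 medium with 10 ng/mL IL-12 and an antibody against IL-4; their labels give 2 culture days, and there are 2 WT and 3 KO libraries. The sources used here do not give how the allele was deleted, in which cells, at what age the animals were used or whether they were pooled. The labels do not say that replicates are separate animals, so p-values measure only the spread between these libraries. Peak lists of open chromatin and histone marks from naive and Th2 cells, among them Suv39h1-/- Th2 cells, were used for the promoters.

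Oxidative phosphorylation is the last stage of respiration. Complexes I and II pass electrons from NADH and succinate to ubiquinone, complex III passes them on to cytochrome c, and complex IV passes them to oxygen. Complexes I, III and IV pump protons across the inner mitochondrial membrane, and complex V, the ATP synthase, uses the gradient to make ATP. Most subunits are encoded in the nucleus and a few in mitochondrial DNA. Naive T cells are small and quiescent, and activation through the T cell receptor is known to bring growth of mitochondria together with a strong rise in glycolysis.

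In Th2 cells the members were mostly lower in the libraries labelled KO than in WT. Of the 88 tested, 53 were lower and 5 higher, where 24.7% of all 17254 genes tested were called lower and 29.3% higher. The median log2 difference over the members was -0.66, and over all genes tested it was 0.13. The largest called differences among the well-expressed members of each complex fell on Ndufv3 and Ndufa6 of complex I, Uqcrh of complex III, Cox7a2l of complex IV and Atp5k of complex V, each more than 1 log2 unit lower. The 5 higher members were Ndufs1, Ndufaf4, Ndufaf7, Ndufa4 and Atp5g3. A call throughout is an adjusted p under 0.05 in limma, fitted on log2(normalised read count + 1) over all 18 libraries, with Benjamini-Hochberg adjustment over all genes tested.

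These counts depend on how libraries are scaled. The deposited counts are divided by a size factor per library, after which the total per library, in units of 1000000 (M), was 24.6 to 25.29 M in Th2 WT and 17.77 to 18.11 M in Th2 KO. When libraries were scaled to their total reads instead, an alternative chosen after seeing the data, 34 members were lower and 15 higher. Of the 17254 genes tested, 2720 were then lower and 7487 higher. That scaling moved the median of all genes by 0.404 in this comparison. Relative to the median of all genes, the members' median was -0.79 with the deposited scaling and -0.71 with scaling to total reads. Lower calls made up 91.4% of the members' calls with the deposited scaling and 69.4% with scaling to total reads, beside 45.7% and 26.6% over all genes.

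After the switch to Th1 medium, 40 members were lower and 5 higher in libraries labelled KO than in WT, where 16.1% of all genes were called lower and 17.6% higher. The median log2 difference was -0.44 for the members and 0.09 for all genes. Scaled to total reads, 30 were lower and 13 higher, where 1742 of the 17254 genes tested were lower and 5022 higher. The members' median relative to that of all genes was -0.50 with this scaling, beside -0.53 with the deposited scaling. Of the members called lower in Th2 cells, 34 were also called lower in Th2-Th1 cells. That is 64.2% of the 53 and 85% of the 40. The same overlap over all genes is not given here, so these shares are not read as particular to the members. Atp5d, Atp5j2, Cox8a and Uqcrc2 were lower in Th2 cells and higher in Th2-Th1 cells, and Ndufa4 was higher in the first and lower in the second. With the deposited scaling no member was called higher in both. Uqcrc1 was higher in both with TMM scaling (0.34 and 0.51), where the medians of all genes were 0.238 and 0.165. Atp5a1 was called higher in both with scaling to total reads (0.36 and 0.31). These lie below the medians of all genes with that scaling, 0.532 and 0.351.

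In naive cells, 6 members were lower and 2 higher in libraries labelled KO, where 3.45% of all genes were called lower and 7.43% higher. The members' median was -0.12 and that of all genes was -0.00. None of the 8 calls held with only the naive libraries in the fit. Without the 3 naive libraries that stood apart in the number of genes detected, 1 member was lower and 1 higher. Leaving out 1 library moved the lower count from 6 to 0 without KO replicate 2, 1 without KO replicate 1, 2 without WT replicate 2 and 14 without KO replicate 3. The higher count was 1 without KO replicate 2 or KO replicate 3. The plot of differences by complex shows the members for the genotype and culture comparisons and for the switch in WT.

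**Figure D1:**
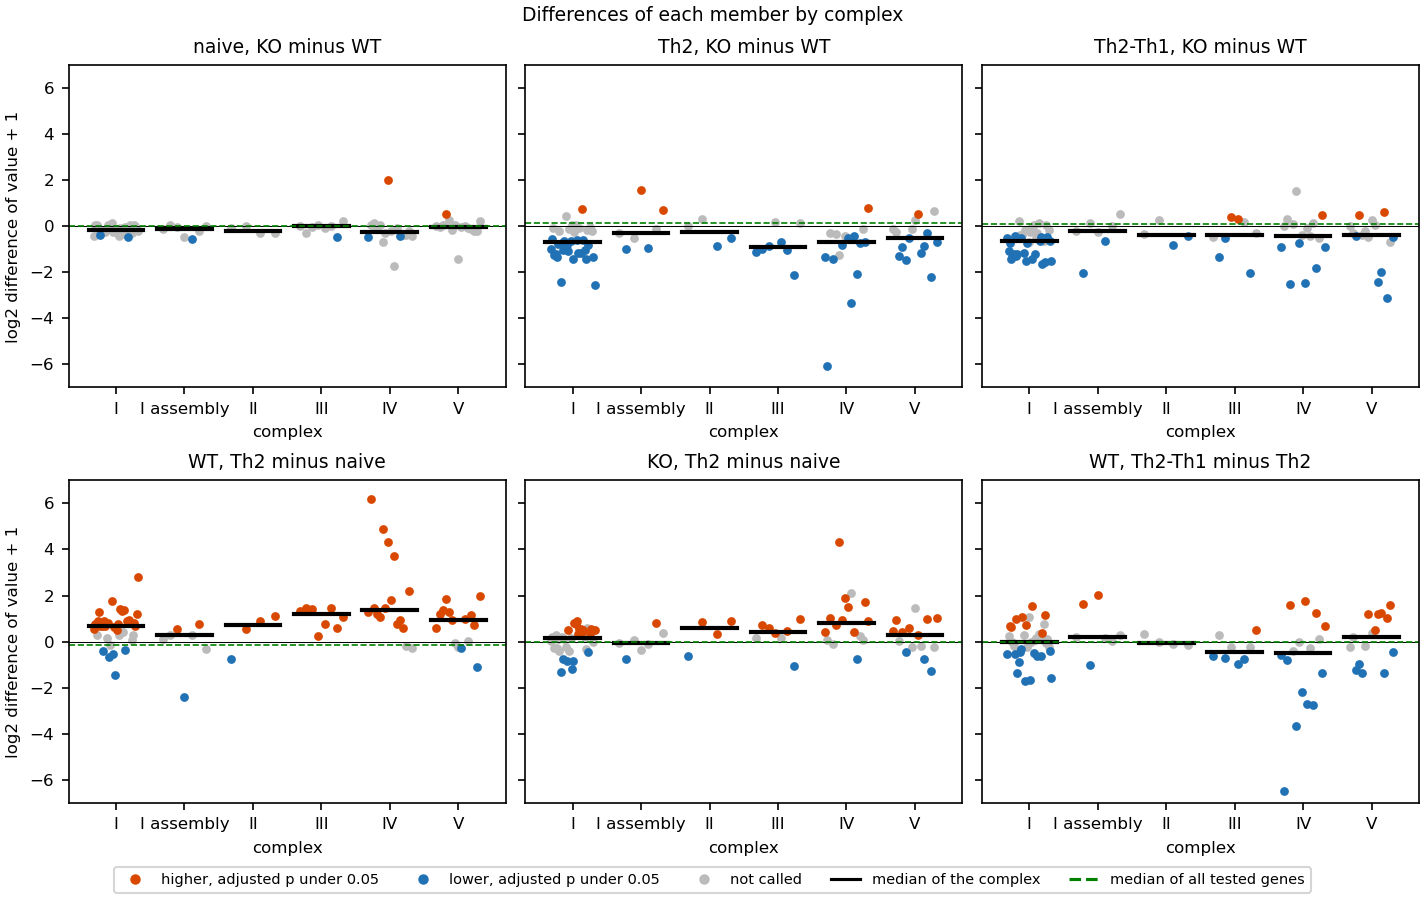
Log2 difference of each member that was tested (points), by complex, where KO stands for libraries labelled Setdb1 KO. Panels show the 3 comparisons of genotype, Th2 minus naive within each label, and Th2-Th1 minus Th2 in WT only. Orange points (higher) and blue points (lower) passed the test and grey points did not, short bars are medians of a complex and the dashed line is the median of all genes tested; the 2 factors Atp5s and Atp5sl are not drawn. In Th2 cells 53 of the 88 members tested were called lower, among them Atp5sl, which is not drawn, and in WT cells 60 rose from naive to Th2.

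The libraries themselves were checked before the members. Depth was 10.0 to 18.5 M reads a library in naive cells, 10.1 to 13.3 M in Th2 WT, 18.9 to 19.8 M in Th2-Th1 WT, 36.3 to 44.7 M in Th2 KO and 37.2 to 37.6 M in Th2-Th1 KO. Whole-gene Setdb1 counts ranged from 1214 to 1366 in naive WT and from 933 to 1103 in naive KO. They ranged from 694 to 933 in Th2 WT and from 8070 to 9044 in Th2 KO, and from 1594 to 1611 in Th2-Th1 WT and 5430 to 7389 in Th2-Th1 KO. Whole-gene counts cannot show whether an exon is deleted, and in both cultured conditions they are higher in the group labelled as the knockout, so the groups are called by their labels throughout. At an equal depth of 10019187 reads, 3 naive libraries stood apart with more genes detected: 21278 in WT replicate 1, 25556 in WT replicate 3 and 22208 in KO replicate 2. The other 15 libraries had 15148 to 18608.

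Markers of CD4 T cells were high in every group, with summed normalised counts between 43221 and 104870. B cell markers summed to at most 304. The summed level of 8 myeloid markers was 1362 to 1716 in Th2 WT and 4720 to 5520 in Th2 KO; Emr1 made up 1243 to 1602 and 4659 to 5438 of it, Cd68 read 94.8 to 139 and 51.7 to 70.3, Lyz2 stayed at or under 1.00, and S100a8 and S100a9 were 0. Cytosolic ribosomal protein genes took 6.29 to 7.09% of reads in Th2 WT and 2.22 to 2.35% in Th2 KO. The 100 most abundant genes took 29.7 to 30.6% and 15.8 to 16.2%. Erythroid and platelet markers summed to 17.5 to 34.3 in Th2 WT and 381 to 417 in Th2 KO, nearly all of it Hba-a1, while Hbb-bs was 0. Naive T cell markers summed to 10676 to 11480 and 2459 to 3144, Th2 markers to 8986 to 9313 and 3757 to 5325, and Th1 markers to 6.05 to 9.98 and 67.9 to 132 in the same groups. Th1 markers summed to 8193 to 17841 in Th2-Th1 KO and 182 to 270 in Th2-Th1 WT, and Th2 markers to 30442 to 69225 and 357950 to 408260. The part of these differences in the members' values was not tested. In bulk samples, fewer cells of a type and less RNA per cell cannot be told apart.

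As a share of all reads in the gene table, the members took 0.760% ± 0.0498 (SD, n = 4) in naive WT and 0.697% ± 0.0734 (SD, n = 3) in naive KO. The share was 1.01% ± 0.0662 (SD, n = 3) in Th2 WT and 0.838% ± 0.0330 (SD, n = 3) in Th2 KO. In Th2-Th1 cells it was 1.07% ± 0.0578 (SD, n = 2) in WT and 0.790% ± 0.0374 (SD, n = 3) in KO. The Th2 WT libraries ran from 0.940 to 1.07% and the Th2 KO libraries from 0.815 to 0.876%, so the groups did not overlap, while the naive groups did. Without cytosolic ribosomal reads in the total, the share was 1.09% in Th2 WT and 0.858% in Th2 KO. Complexes differed in this share. Complex I took 0.327% in Th2 WT and 0.227% in Th2 KO, and complex IV took 0.219% and 0.156%. Complex V took 0.316% and 0.317%, and complex II took 0.0499% and 0.0615%. No test was made on shares.

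**Figure D2:**
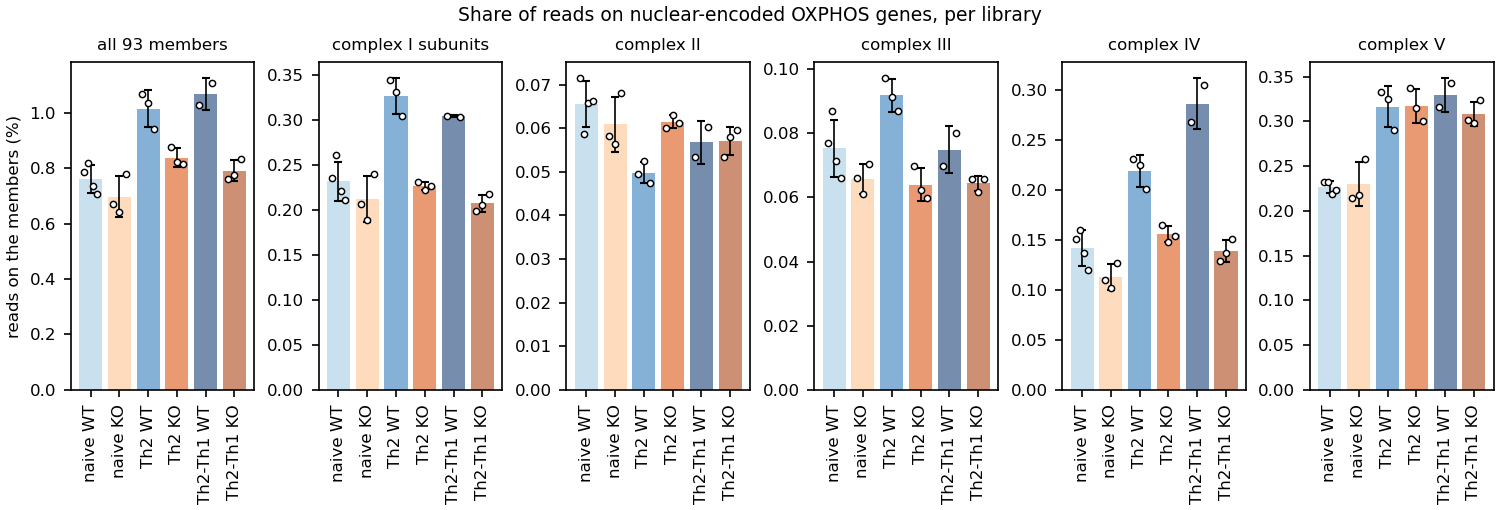
Percent of the reads in the gene table that fell on the members, per library (points), with the group mean and SD (bars and error bars), for all members and by complex. KO stands for libraries labelled Setdb1 KO; the shares of complexes I, III and IV are lower in Th2 KO than in Th2 WT, and those of complex V are 0.317% and 0.316%.

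The promoters of 6 members are shown, chosen after their values were seen. Ndufv3, Uqcrh, Cox7a2l and Atp5k had the lowest difference between Th2 KO and WT among well-expressed members (a mean of at least 50) of complexes I, III, IV and V, 1 for each complex. Ndufaf4 and Ndufa4 are the 2 members that were higher by most. Each runs from 250 bases before to 50 bases after the RefSeq start of the gene, 5′ to 3′ on the gene's strand, build GRCm38.p6. Capitals mark letters that match 1 of 5 motifs searched on both strands. CCGGAAG is bound by ETS factors such as GABP, and TGCGCA is a part of the NRF1 site. The others are AAGATGG of YY1, AAGGTCA of the estrogen-related receptors, and GGGCGG of SP factors. GABP, NRF1, YY1 and the estrogen-related receptors are known regulators of respiratory chain genes. The windows lie at chr4:116075021-116075320 on the minus strand for Uqcrh, chr17:31519865-31520164 on the plus strand for Ndufv3, chr17:83514284-83514583 on the minus strand for Cox7a2l, chr5:108434350-108434649 on the minus strand for Atp5k, chr4:24897833-24898132 on the plus strand for Ndufaf4 and chr6:11907401-11907700 on the minus strand for Ndufa4.
Uqcrh: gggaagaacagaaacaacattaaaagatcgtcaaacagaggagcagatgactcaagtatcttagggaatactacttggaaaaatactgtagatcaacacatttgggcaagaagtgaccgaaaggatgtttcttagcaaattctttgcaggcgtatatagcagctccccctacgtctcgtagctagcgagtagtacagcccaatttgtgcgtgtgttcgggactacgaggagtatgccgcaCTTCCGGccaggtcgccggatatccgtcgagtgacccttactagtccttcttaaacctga
Ndufv3: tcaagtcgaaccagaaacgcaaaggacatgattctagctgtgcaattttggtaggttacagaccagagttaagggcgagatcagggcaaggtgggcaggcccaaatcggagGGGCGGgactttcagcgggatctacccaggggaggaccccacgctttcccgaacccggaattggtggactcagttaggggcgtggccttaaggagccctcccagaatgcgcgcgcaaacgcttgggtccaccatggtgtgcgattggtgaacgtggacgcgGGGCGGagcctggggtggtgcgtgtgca
Cox7a2l: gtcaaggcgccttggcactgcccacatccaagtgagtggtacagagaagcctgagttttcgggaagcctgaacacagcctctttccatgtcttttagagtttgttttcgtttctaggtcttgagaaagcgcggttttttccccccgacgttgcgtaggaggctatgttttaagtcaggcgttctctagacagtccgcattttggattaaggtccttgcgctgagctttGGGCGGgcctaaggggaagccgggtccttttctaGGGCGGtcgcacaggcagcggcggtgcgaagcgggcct
Atp5k: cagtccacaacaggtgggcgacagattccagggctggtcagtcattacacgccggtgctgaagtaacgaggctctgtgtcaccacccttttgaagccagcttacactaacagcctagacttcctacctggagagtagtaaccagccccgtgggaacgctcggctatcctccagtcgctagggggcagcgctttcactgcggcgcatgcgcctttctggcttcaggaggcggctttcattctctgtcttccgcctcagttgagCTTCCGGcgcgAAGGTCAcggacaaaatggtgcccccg
Ndufaf4: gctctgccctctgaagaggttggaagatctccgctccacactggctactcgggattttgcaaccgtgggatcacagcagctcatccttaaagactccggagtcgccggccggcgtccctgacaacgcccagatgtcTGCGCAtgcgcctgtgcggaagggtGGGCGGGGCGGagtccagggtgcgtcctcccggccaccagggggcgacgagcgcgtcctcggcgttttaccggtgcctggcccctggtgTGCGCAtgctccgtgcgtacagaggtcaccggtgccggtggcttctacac
Ndufa4: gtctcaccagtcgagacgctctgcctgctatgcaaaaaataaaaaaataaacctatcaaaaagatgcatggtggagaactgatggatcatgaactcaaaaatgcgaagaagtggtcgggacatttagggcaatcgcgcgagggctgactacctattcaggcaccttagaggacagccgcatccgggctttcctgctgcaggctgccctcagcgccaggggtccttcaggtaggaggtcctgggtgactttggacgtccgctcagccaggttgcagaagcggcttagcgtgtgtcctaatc

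The 4 promoters of lower members share no single motif. Uqcrh holds 1 match to the ETS letters, Atp5k holds 1 to the ETS letters and 1 to the estrogen-related receptor letters, and Ndufv3 and Cox7a2l hold 2 matches each to the SP letters. Of the higher members, Ndufaf4 holds 2 matches to the NRF1 letters and 2 overlapping matches to the SP letters. Ndufa4 holds none of the 5. All 93 members matched a RefSeq gene, 4 of them by synonym, and 76 had a promoter window in the table. Among these 76, 22.4% held the ETS letters, where 9.93% of all 27025 genes with a window held them and 18.7% of those tested for expression did. The NRF1 letters stood in 25% of member windows, 8.79% of all and 14.8% of tested genes. The YY1 letters stood in 15.8% of member windows, 7.28% of all and 8.13% of tested genes, and the estrogen-related receptor letters in 10.5%, 5.38% and 4.17%. The SP letters stood in 44.7%, 38.2% and 64.9%. A match is a description of letters and not of a bound site. The Atp5k window holds GCGCATGCGC, which the NRF1 letters do not match, so no match does not mean no site.

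Member promoters were open and acetylated in Th2 cells of both labels. An ATAC-seq peak overlapped 73 of the 76 windows by at least 1 base in WT, where 44.7% of all windows and 84.6% of those of tested genes had a peak, and 74 in KO, where 40.8% and 80.5% had one. H3K27ac, a mark of active promoters and enhancers, overlapped 70 in WT beside 35.3% of all and 70.9% of tested genes, and 72 in KO beside 32.0% and 64.3%. Windows of Cox7b2 and Cox8b, members that did not pass the expression filter, had neither an ATAC-seq nor an H3K27ac peak in either list. Cox6b2 and Uqcrc1 had no H3K27ac peak in either list, and the other windows without a peak were those of Ndufa13 for ATAC-seq and of Ndufaf4 and Ndufc2 for H3K27ac, each in the WT list only. There is 1 library a label for these 2 assays, so no test was made, and the presence of a peak says nothing of its height.

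H3K9me3, the mark that Setdb1 deposits, overlapped 0 of the 76 windows in each of its 5 lists. Over all windows the overlap was 0.54% in naive WT, 0.144% in naive KO, 0.559% in Th2 WT, 0.222% in Th2 KO and 4.69% in Th2 Suv39h1-/- cells. Members without a window were compared over their whole gene. Of these 17, 0 had an H3K9me3 peak in the WT and Setdb1-/- lists and 1 in the Suv39h1-/- list. Over all genes without a window the share was 4.21% in naive WT, 0.775% in naive KO, 4.82% in Th2 WT, 0.723% in Th2 KO and 14.7% in Suv39h1-/- cells, so 0 of 17 is near the background. H3K4me1, a mark of enhancers and promoter flanks, overlapped 52 windows in naive WT beside 32.4% of all and 59.7% of tested genes. It overlapped 24 in Th2 WT beside 24.3% and 39.3%. In a separate Th2 experiment it overlapped 12 in WT beside 16.6% and 24.4%, and 15 in KO beside 18.1% and 26.9%.

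**Figure D3:**
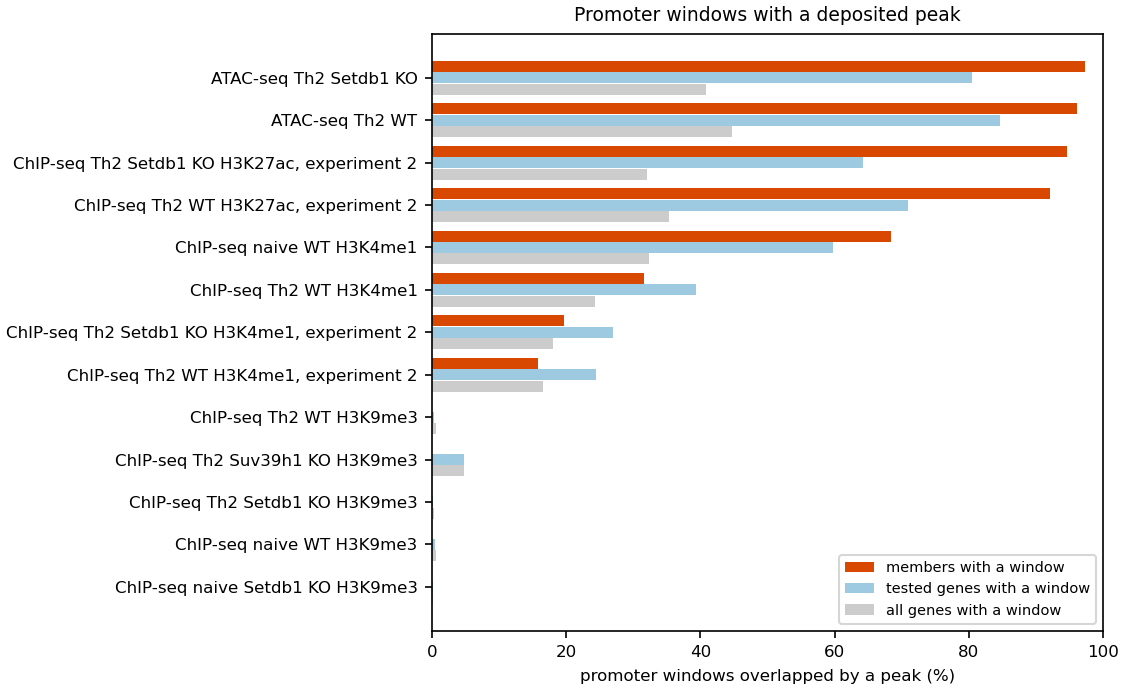
Percent of the 76 member promoter windows, of the windows of genes tested for expression and of all 27025 windows that a peak overlaps by at least 1 base, for each of the 13 deposited peak lists. KO stands for Setdb1-/- unless Suv39h1 is named; member windows are above 90% for ATAC-seq and H3K27ac and at 0 for H3K9me3.

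Complex I, the NADH dehydrogenase, had 23 of its 36 tested subunits lower and 1 higher in Th2 cells labelled KO. Over all genes tested, 24.7% were lower and 29.3% higher. The median log2 difference over complex I was -0.67. With scaling to total reads, 14 were lower and 6 higher, with a median of -0.19. Of the 17254 genes tested, 2720 were then lower and 7487 higher, with a median of 0.53 over all of them. Ndufv3, a small subunit of the NADH-binding module, read 16973, 16487 and 16916 in Th2 WT and 2719, 2923 and 3090.5 in Th2 KO. The 2 groups are far apart and each is tight, and the log2 difference was -2.53 ± 0.11 (SE; adjusted p = 1.99e-12). In naive WT it read 2279, 2847, 2477 and 2060.5, so the WT level had risen by 2.81 (adjusted p = 1.93e-14) in Th2 culture, while from naive KO to Th2 KO it rose by 0.49 (adjusted p = 0.00118). In Th2-Th1 cells Ndufv3 read 5655 and 5417 in WT and 1886, 2058 and 1976 in KO, a log2 difference of -1.49 ± 0.13. KO libraries thus also rose with Th2 culture and read lower after the switch without overlap. Both of these changes were smaller in KO than in WT.

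Ndufa6, an accessory subunit of the LYR family, read 4188, 3499.6 and 3275 in Th2 WT and 735, 613 and 689 in Th2 KO, a log2 difference of -2.42 ± 0.17 (SE; adjusted p = 6.76e-10). Naive libraries read 1932, 2684, 1872 and 1457 in WT and 1557, 1731 and 1874 in KO, and these overlap. Th2 culture therefore went with a rise of 0.91 (adjusted p = 5.85e-05) in WT and a fall in KO, at a log2 difference of -1.34 (adjusted p = 1.93e-06). The change of direction was itself tested: the interaction of genotype with Th2 culture was -2.25 ± 0.24 (SE; adjusted p = 4.07e-07). In Th2-Th1 cells Ndufa6 read 1443 and 1363 in WT and 754, 519 and 579 in KO.

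Ndufs4, whose loss in mice is a model of Leigh syndrome, read 5764 and 5832 in Th2-Th1 WT and 1576, 2115 and 2038 in KO, a log2 difference of -1.61 ± 0.14 (SE; adjusted p = 9.93e-08). In Th2 cells it read 4589, 4505 and 4413 in WT and 1574, 1632 and 1867 in KO. WT libraries were above KO libraries in both cultures with no overlap. Ndufs6, a zinc-binding accessory subunit, read 1244 and 1087 in Th2-Th1 WT against 329, 460.3 and 426 in KO, at -1.53 (adjusted p = 5.91e-06). The core subunits behaved differently. Ndufs1, the largest iron-sulphur subunit, read 1857, 1683 and 1859 in Th2 WT and 3225, 3054 and 2778 in Th2 KO, higher in KO by 0.74 ± 0.15 (SE; adjusted p = 0.000421). Ndufv1, which carries the flavin, read 2704, 2063 and 2118 and 2146, 1971 and 1899, and the difference of -0.19 (adjusted p = 0.144) did not pass the test. With scaling to total reads it turned to 0.29 (adjusted p = 0.0253), below the median of all genes, 0.53.

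Membrane-arm subunits of complex I moved in different directions on the switch to Th1 medium. Ndufb7 in WT read 2075, 2019 and 1599 before and 5276 and 5625 after the switch, and in KO 1915, 1909.6 and 2169.7 and 1769, 2199 and 2143. It rose in WT by 1.53 (adjusted p = 1.15e-06), the KO difference was 0.02 (adjusted p = 0.959), and the interaction was -1.51 (adjusted p = 9.31e-05). Ndufb5 did the opposite in WT, from 1809, 1381 and 1472 to 443 and 531, a log2 difference of -1.67 (adjusted p = 2.99e-07). Its KO libraries read 632, 526 and 558 before and 463, 354 and 437 after. Ndufb11 also fell in WT, from 2459.9, 2162 and 1684 to 581 and 692, at -1.71 (adjusted p = 8.42e-08), and in KO from 1037, 951 and 984 to 636, 511 and 577, at -0.79 (adjusted p = 0.00053). Ndufb2 read 579.9 and 644 in Th2-Th1 WT and 178, 213 and 258 in KO, and its interaction of genotype with the switch was -1.41 (adjusted p = 0.000846). Over complex I in Th2-Th1 cells, 22 subunits were lower in KO and 0 higher, where 16.1% of all genes were lower and 17.6% higher.

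Assembly factors of complex I build the complex and are no part of the finished enzyme. In Th2 cells 2 of 7 were lower and 2 higher in KO. These shares lie near those of all genes tested, 24.7% lower and 29.3% higher. Ndufaf4 read 155, 187 and 155 in Th2 WT and 519, 443 and 554 in Th2 KO, higher in KO by 1.60 ± 0.16 (SE; adjusted p = 7e-08). In naive cells it read 749.7, 939.8, 999 and 839 in WT and 553, 720.3 and 658 in KO, and in Th2-Th1 cells 589 and 759.8 and 472, 591 and 646. Th2 WT is thus the single low group of the 6, and the interaction with Th2 culture was 2.06 (adjusted p = 4.5e-07). Ndufaf7, a methyltransferase, read 298, 163 and 175 in WT and 347, 316 and 357 in KO, at 0.73 (adjusted p = 0.0136); without Th2 WT replicate 2 the adjusted p was 0.0745 and without replicate 3 it was 0.06. Ndufaf2, a relative of the subunit Ndufa12, read 266, 293 and 342 in Th2 WT and 149, 146 and 159 in KO, at -0.98 (adjusted p = 0.00434), which did not hold with scaling to total reads (-0.50, adjusted p = 0.103). In Th2-Th1 cells it read 809 and 1034 in WT and 158, 281 and 244 in KO, at -2.04 (adjusted p = 3.1e-05). Ndufaf5, which modifies Ndufs7, read 595, 451 and 644 in Th2 WT and 345, 275 and 263 in KO, at -0.93 (adjusted p = 0.000173).

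Complex II, succinate dehydrogenase, is shared with the TCA cycle. Its catalytic subunits and its membrane anchors differed. Sdha, the flavoprotein, read 3524, 4626 and 4757 in Th2 WT and 3814, 4700.3 and 4648 in Th2 KO, which overlap, with a log2 difference of 0.03 (adjusted p = 0.874). Its naive WT libraries read 7945, 6130.5, 7304 and 7416, all above every Th2 library, and it fell with Th2 culture by 0.75 (adjusted p = 6.23e-05) in WT and by 0.62 (adjusted p = 0.00108) in KO. Sdhb, the iron-sulphur subunit, read 2879, 2455 and 1784 and 3112, 2911 and 2800.2 in the same groups, at 0.34 (adjusted p = 0.0686). Scaled to total reads, both were called higher in KO, Sdha by 0.51 and Sdhb by 0.81. The median of all genes tested was then 0.53, so the Sdha difference is near that of a typical gene. The anchor Sdhc read 2615, 2407 and 2425 in Th2 WT and 1293, 1319.9 and 1489 in Th2 KO, at -0.86 ± 0.11 (SE; adjusted p = 1.57e-06). The anchor Sdhd read 3311, 3425 and 3043 and 2468, 2332 and 2158, at -0.49 ± 0.12 (SE; adjusted p = 0.0013), and this call was lost with scaling to total reads (-0.02, adjusted p = 0.93). In Th2-Th1 cells Sdhc read 2149 and 2403 in WT and 1259.6, 1239 and 1386 in KO, at -0.81 (adjusted p = 3.94e-05).

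Complex III, the cytochrome bc1 complex, had 6 of 8 subunits lower in Th2 cells labelled KO and 0 higher. Over all genes tested, 24.7% were lower and 29.3% higher. The median over complex III was -0.92. With scaling to total reads, 5 were lower and 2 higher, with a median of -0.44. Of the 17254 genes tested, 2720 were then lower and 7487 higher, with a median of 0.53 over all of them. Uqcrh, the hinge protein that helps bind cytochrome c1, read 9079, 9131 and 8534 in Th2 WT and 2132, 1850.5 and 2217 in Th2 KO, a log2 difference of -2.11 ± 0.14 (SE; adjusted p = 3.37e-10). In Th2-Th1 cells it read 6526 and 8619 in WT and 1899.9, 1896 and 1809.7 in KO, at -2.0 ± 0.16. Naive libraries read 5728, 8118, 5931 and 4732 in WT and 4468, 4146 and 4501 in KO. The WT libraries remained at or above the lowest naive level in every condition, and the KO libraries were lower in both cultures than in naive cells. Uqcr10, a small subunit, read 833, 701 and 741 in Th2 WT and 434, 359 and 263 in KO, at -1.13 (adjusted p = 7.29e-05).

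The Rieske iron-sulphur protein Uqcrfs1 read 4426, 3873 and 3814 in Th2 WT and 2275, 2122 and 1668 in Th2 KO, at -1.01 ± 0.13 (SE; adjusted p = 2.34e-06). After the switch it read 2261 and 2455 in WT and 2879, 2541 and 2719 in KO, and the difference of 0.20 (adjusted p = 0.324) did not pass the test. The core protein Uqcrc2 read 4730.2, 4143 and 4465 and 2968, 2798 and 2526 in Th2 WT and KO and 2262 and 2291 and 2756, 2738 and 3071 after the switch. It was lower in KO in Th2 cells (-0.69 (adjusted p = 2.61e-05)) and higher in Th2-Th1 cells (0.32 (adjusted p = 0.0473)), and the change between them was tested as an interaction of 1.01 (adjusted p = 7.71e-05). The Th2-Th1 call was lost when any 1 of the 5 Th2-Th1 libraries was left out, with adjusted p from 0.0603 to 0.165, and was 0.0702 with the replicate number as a block. Uqcrc1, the other core protein, read 2117, 2143 and 2143 in Th2 WT and 2597, 2418 and 2387 in Th2 KO, at 0.21 (adjusted p = 0.0576). It passed the test as higher in KO with TMM scaling (0.34, adjusted p = 0.00246), with scaling to total reads (0.68, adjusted p = 1.58e-06), with edgeR and DESeq2 (0.00441 and 0.0339) and with only the contrasted groups (0.0293). After the switch it read 1669 and 2011 in Th2-Th1 WT and 2415, 2401 and 2571 in KO, at 0.43 (adjusted p = 0.00262), and without WT replicate 1 the adjusted p was 0.0828. Uqcr11, a small subunit, was lower in both cultures, at -0.99 (adjusted p = 8.55e-05) in Th2 and -1.32 (adjusted p = 3.44e-05) in Th2-Th1 cells.

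Complex IV, cytochrome c oxidase, had 10 of 16 tested members lower and 1 higher in Th2 cells labelled KO. With scaling to total reads, 6 were lower and 1 higher, where 2720 of the 17254 genes tested were lower and 7487 higher. Over all genes tested, 24.7% were lower and 29.3% higher with the deposited scaling. Cox7a2l read 12838, 12048 and 11635 in Th2 WT and 2946, 2753 and 2895 in Th2 KO, at -2.09 ± 0.12 (SE, adjusted p = 2.6e-11). After the switch WT libraries read 1617 and 1959 and KO libraries 2295, 1844 and 1775, which overlap. The WT level thus fell by 2.77 on the log2 scale (adjusted p = 5.88e-12) on the switch, and the KO level by 0.55 (adjusted p = 0.00137). The interaction of genotype with the switch was 2.22 ± 0.18 (SE; adjusted p = 2e-08).

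Cox5b, a zinc-binding subunit, read 942, 1091 and 960.4 in Th2 WT and 416, 365 and 329 in Th2 KO, at -1.43 (adjusted p = 2.42e-08). In Th2-Th1 cells it read 2844 and 3239 in WT and 528, 521 and 546 in KO, at -2.51 ± 0.15 (SE; adjusted p = 6.21e-10). Its partner Cox5a read 1161, 1048 and 958 in Th2 WT and 994, 878 and 724 in KO, at -0.29 (adjusted p = 0.126). The small subunit Cox6c read 19728 and 24776 in Th2-Th1 WT and 2976, 4444 and 4947 in KO, at -2.46 ± 0.17 (SE; adjusted p = 2.84e-09), and 6436, 6756 and 6419 and 4289, 4196 and 5236 in Th2 cells. The WT libraries went up on the switch by 1.76 (adjusted p = 4.66e-08) and the KO libraries did not pass the test at -0.18 (adjusted p = 0.463). Cox7b showed the same order, with 16822 and 19041 in Th2-Th1 WT and 4027, 5531 and 6113 in KO, at -1.80 (adjusted p = 3.65e-07); its Th2 difference of -0.71 (adjusted p = 0.000897) was lost with scaling to total reads (-0.24, adjusted p = 0.21).

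Cox8a and Ndufa4 changed direction between the cultures. Cox8a read 4154, 4329 and 4006 in Th2 WT and 3036, 2488 and 2275 in Th2 KO, then 1706 and 1552 in Th2-Th1 WT and 2486, 2069.7 and 2430.0 in KO. The difference was -0.69 (adjusted p = 0.000308) in Th2 cells and 0.51 (adjusted p = 0.0147) in Th2-Th1 cells, with an interaction of 1.20 (adjusted p = 0.000149). Scaling to total reads ended the Th2 call (-0.21, adjusted p = 0.215), and the Th2-Th1 call had an adjusted p of 0.127 without WT replicate 2 and 0.0508 without KO replicate 1. Ndufa4 did the reverse, with 923, 703 and 798 in Th2 WT and 1697, 1345 and 1201 in Th2 KO, then 1323 and 1256 in Th2-Th1 WT and 642, 666 and 756 in KO. It was higher in Th2 KO by 0.80 (adjusted p = 0.00126) and lower in Th2-Th1 KO at -0.91 (adjusted p = 0.0022), with an interaction of -1.71 (adjusted p = 8.93e-05).

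Several subunits of complex IV exist as a common isoform and a tissue isoform. Cox4i1, the common form of subunit 4, read 12539, 11924 and 10976 in Th2 WT and 5118, 4441 and 4588 in Th2 KO, at -1.33 ± 0.13 (SE; adjusted p = 6.94e-08). Cox4i2, known from lung, read 84.7, 96.5 and 89.8 in Th2 WT and 0 to 1.5 in the other 15 libraries. It passed the filter through that group alone, so its differences are given without a test. The muscle form Cox7a1 read 107, 50.1 and 49.9 in Th2 WT and 2.38, 8.95 and 6.99 in Th2 KO, with an adjusted p of 0.00354. The common form Cox7a2 read 1976, 1527 and 1272 and 1304, 1104 and 1079. Its difference of -0.43 (adjusted p = 0.0357) did not hold under several settings and turned to 0.04 (adjusted p = 0.867) with scaling to total reads. The muscle form Cox6a2 read 38.3, 79.8 and 32.4 in Th2 WT and 13.1, 24.2 and 21.5 in Th2 KO, and Cox6b2, known from testis, 54.4, 152 and 115 and 61.6, 75.2 and 83.9; neither difference passed the test. In WT cells Cox6b2 and Cox7a1 were called higher in Th2 than in naive libraries. Cox6a2 reached 10 only in cultured cells and read 0 to 1.81 in naive libraries, so no call between naive and Th2 cells is read for it. Cox6a1 and Cox6b1, the common forms, read 849, 933 and 646 and 6914, 6545 and 5680.3 in Th2 WT and 685, 623 and 609.5 and 3776, 3516 and 3705 in Th2 KO.

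**Figure D4:**
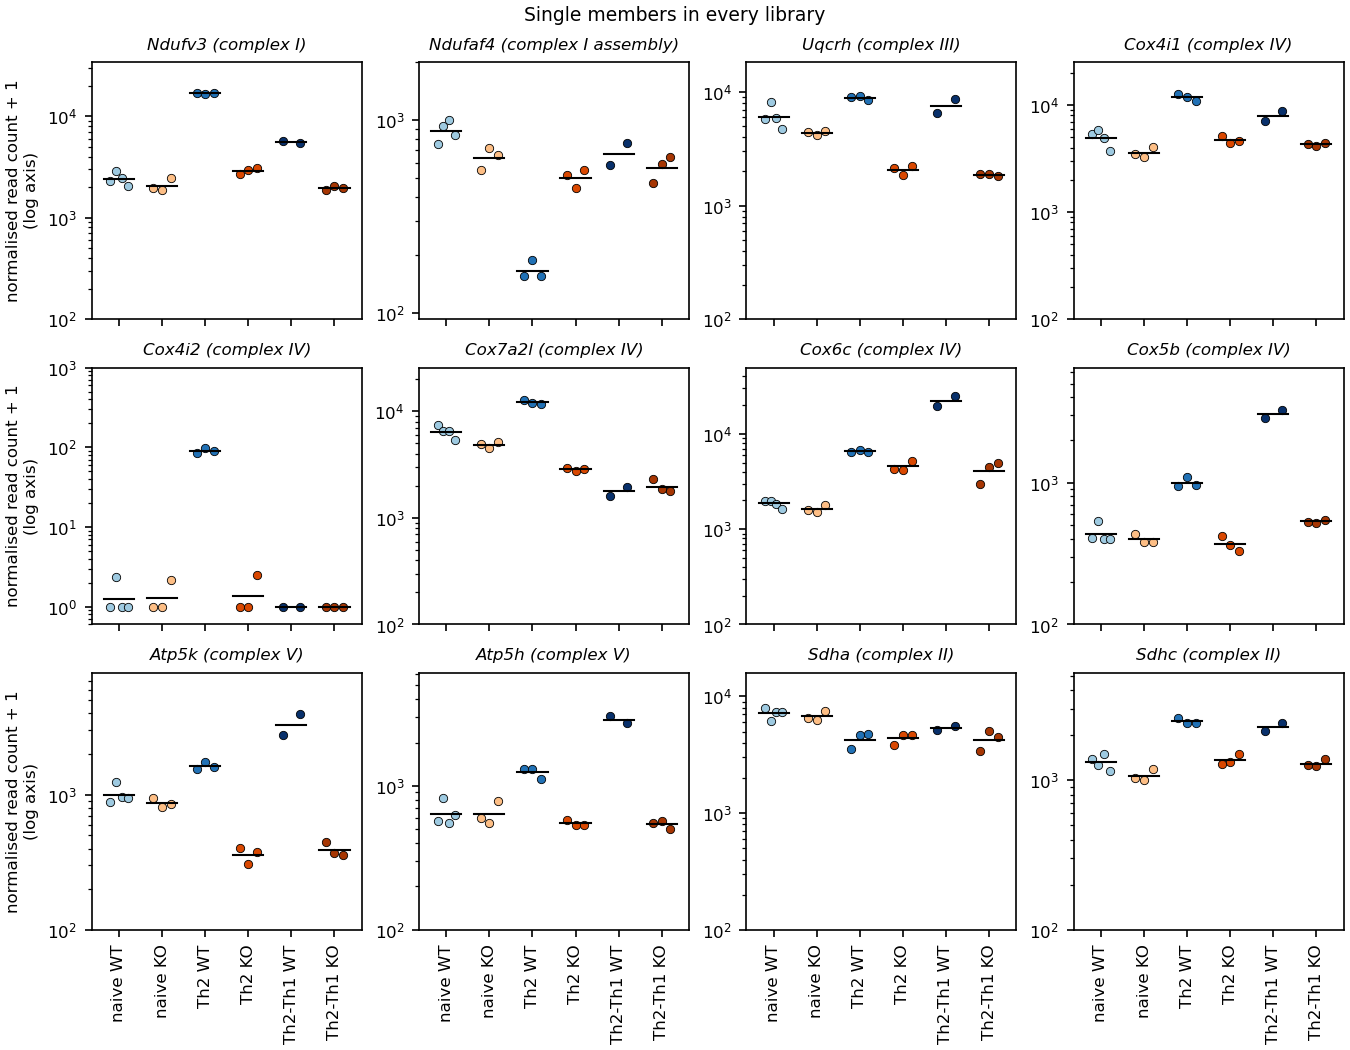
Normalised read count of 12 members in every library (points, log axis, plotted as count + 1), by group, with the geometric mean of count + 1 as a bar. KO stands for libraries labelled Setdb1 KO; Ndufv3, Uqcrh, Cox7a2l and Atp5k are lower in Th2 KO than in Th2 WT with no overlap, and Ndufaf4 is lowest in Th2 WT.

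Complex V, the ATP synthase, had 9 of 15 tested members lower and 1 higher in Th2 cells labelled KO. Over all genes tested, 24.7% were lower and 29.3% higher. The median over complex V was -0.52. With scaling to total reads, 6 were lower and 2 higher, with a median of -0.04. Of the 17254 genes tested, 2720 were then lower and 7487 higher, with a median of 0.53 over all of them. The alpha and beta subunits of complex V were not among its called members. Atp5a1, the alpha subunit, read 18586, 18726 and 16799 in Th2 WT and 17723, 16571 and 15769 in Th2 KO, at -0.11 (adjusted p = 0.349). With scaling to total reads the difference was 0.36 (adjusted p = 0.0037), below the median of all genes, 0.53. Atp5b, the beta subunit, read 26026, 26699.8 and 24679.6 and 22857, 21735 and 20408, at -0.25 (adjusted p = 0.0549). Atp5k, subunit e, read 1557, 1744 and 1604 in Th2 WT and 405, 305 and 374 in Th2 KO, at -2.18 ± 0.15 (SE; adjusted p = 6.03e-10). In Th2-Th1 cells it read 2749 and 3995 in WT and 444, 367 and 355 in KO, at -3.10 ± 0.17 (SE; adjusted p = 3.98e-10). Naive libraries read 884, 1251, 956 and 944 in WT and 939, 808 and 855 in KO, so Atp5k rose with Th2 culture in WT and fell in KO, with an interaction of -1.98 (adjusted p = 4.86e-07).

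Atp5h and Atp5j, both of the peripheral stalk, rose in WT on the switch and did not pass the test in KO. Atp5h read 1311, 1310.0 and 1123 in Th2 WT and 3049.8 and 2742 in Th2-Th1 WT, and 575, 537 and 538 and 547, 571 and 504 in KO. Its genotype difference was -1.18 (adjusted p = 1.4e-06) in Th2 and -2.42 (adjusted p = 2.99e-09) in Th2-Th1 cells, with an interaction of -1.24 (adjusted p = 0.000201). Atp5j read 2577, 3134 and 2769 in Th2 WT and 6345 and 7074 in Th2-Th1 WT, and 1545, 1474 and 1655 and 1465, 1844 and 1813 in KO, with an interaction of -1.12 (adjusted p = 0.000321). Atp5e, the epsilon subunit of the central stalk, fell in WT instead, from 2905, 2159.9 and 1811 to 814 and 961, at -1.35 (adjusted p = 3.72e-06). In KO it read 872, 739 and 841 before and 809, 608 and 639.5 after.

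Atp5d, the delta subunit of the central stalk, changed sides. It read 1496, 1132 and 1375 in Th2 WT and 682, 733 and 734 in Th2 KO, at -0.89 (adjusted p = 4.66e-05), and 678 and 670.3 in Th2-Th1 WT and 1139, 844 and 886 in KO, at 0.49 (adjusted p = 0.0282). The interaction was 1.38 (adjusted p = 7.62e-05). The Th2-Th1 call was lost without either WT library (adjusted p = 0.102 and 0.125) or without KO replicate 1 (0.131). The c ring is encoded by a set of genes with identical mature proteins. Atp5g3 read 853, 822 and 703 in Th2 WT and 1208, 1178 and 1068 in Th2 KO, higher in KO by 0.54 (adjusted p = 0.000211). Atp5g1 read 208, 230.1 and 192 and 233, 180.0 and 169.9, at -0.12 (adjusted p = 0.694), and rose on the switch in WT by 1.21 (adjusted p = 0.000533) and in KO by 0.88 (adjusted p = 0.00619). Atp5g2 read 3.71 to 43.4 over all 18 libraries, a gene with near-identical copies whose count is uncertain.

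Th2 culture went with higher levels of most members in WT cells. From naive to Th2 WT, 60 members rose and 10 fell, where 32.8% of all genes tested rose and 33.1% fell, and the members' median was 0.77 beside -0.14 for all genes. All 8 complex III members and 14 of 16 complex IV members rose, with 0 falling in either. The 14, and so the 60, include Cox4i2 and Cox6a2, whose calls here follow from the filter on low values. With scaling to total reads, 6 rose and 1 fell in complex III, and 12 rose and 2 fell in complex IV. The largest rises by the rule were Cox8a from 973, 1089, 855 and 723 in naive WT to the Th2 levels above, at 2.21 ± 0.13, Atp5o, which links the stalk to the catalytic head, from 772, 953, 891 and 836 to 3601, 3411 and 3068, at 1.96 ± 0.091, and Ndufv3 at 2.81 ± 0.11. Scaled to total reads, 42 rose and 19 fell, where 4224 of the 17254 genes tested rose and 7647 fell. The members' median relative to that of all genes was 0.87, beside 0.90 with the deposited scaling. Scaling to total reads moved the median of all genes by -0.452. Under it Uqcrc1 turned from 0.24 to -0.25 (adjusted p = 0.0118), and, among members named by the rule, the rises of Atp5a1, Ndufv1, Sdhb, Cox7a2, Cox7b, Ndufaf3 and Ndufaf6 were lost. The count that fell was 5 without Th2 WT replicate 3 and 6 without the 3 naive libraries that stood apart.

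In cells labelled KO, 39 members rose and 14 fell from naive to Th2, where 28.3% of all genes rose and 25.2% fell, with medians of 0.27 and -0.03. Cox8a and Cox6c rose in KO by 1.71 ± 0.14 and 1.49 ± 0.15. Atp5k, Uqcrh, Ndufa6 and Cox7a2l fell, at -1.27 ± 0.15, -1.08 ± 0.14, -1.34 ± 0.17 and -0.76 ± 0.12, all of them members that rose in WT. Whether the effect of Th2 culture differed between the labels was tested as an interaction: it was negative for 42 members and positive for 4, where 20.6% of all genes were called negative and 20.7% positive. With scaling to total reads these counts were 22 and 12, and the median of all genes moved by 0.417. Of the 17254 genes tested, 2221 were then called negative and 5868 positive.

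On the switch to Th1 medium in WT cells, 21 members rose and 32 fell, where 25.8% of all genes rose and 24.0% fell, so the share that rose, 23.9%, is near the background. Scaled to total reads, 25 rose and 25 fell, where 4925 of the 17254 genes tested rose and 3565 fell. In KO cells 3 rose and 11 fell, shares of 3.41% and 12.5%, where 13% and 13.6% of all genes did. Those that rose in KO were Cox5b, Uqcrfs1 and Atp5g1; without Th2-Th1 KO replicate 1 the count was 5. The interaction of genotype with the switch was positive for 20 members and negative for 16, beside 17.3% and 18.2% of all genes. With scaling to total reads it was positive for 16 and negative for 19, where 2378 of the 17254 genes tested were positive and 3881 negative. These shares of the interaction, 22.7% and 18.2% of the members, lie near the background, as do those that fell in KO cells. The heat map of 87 tested members shows these groups side by side.

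**Figure D5:**
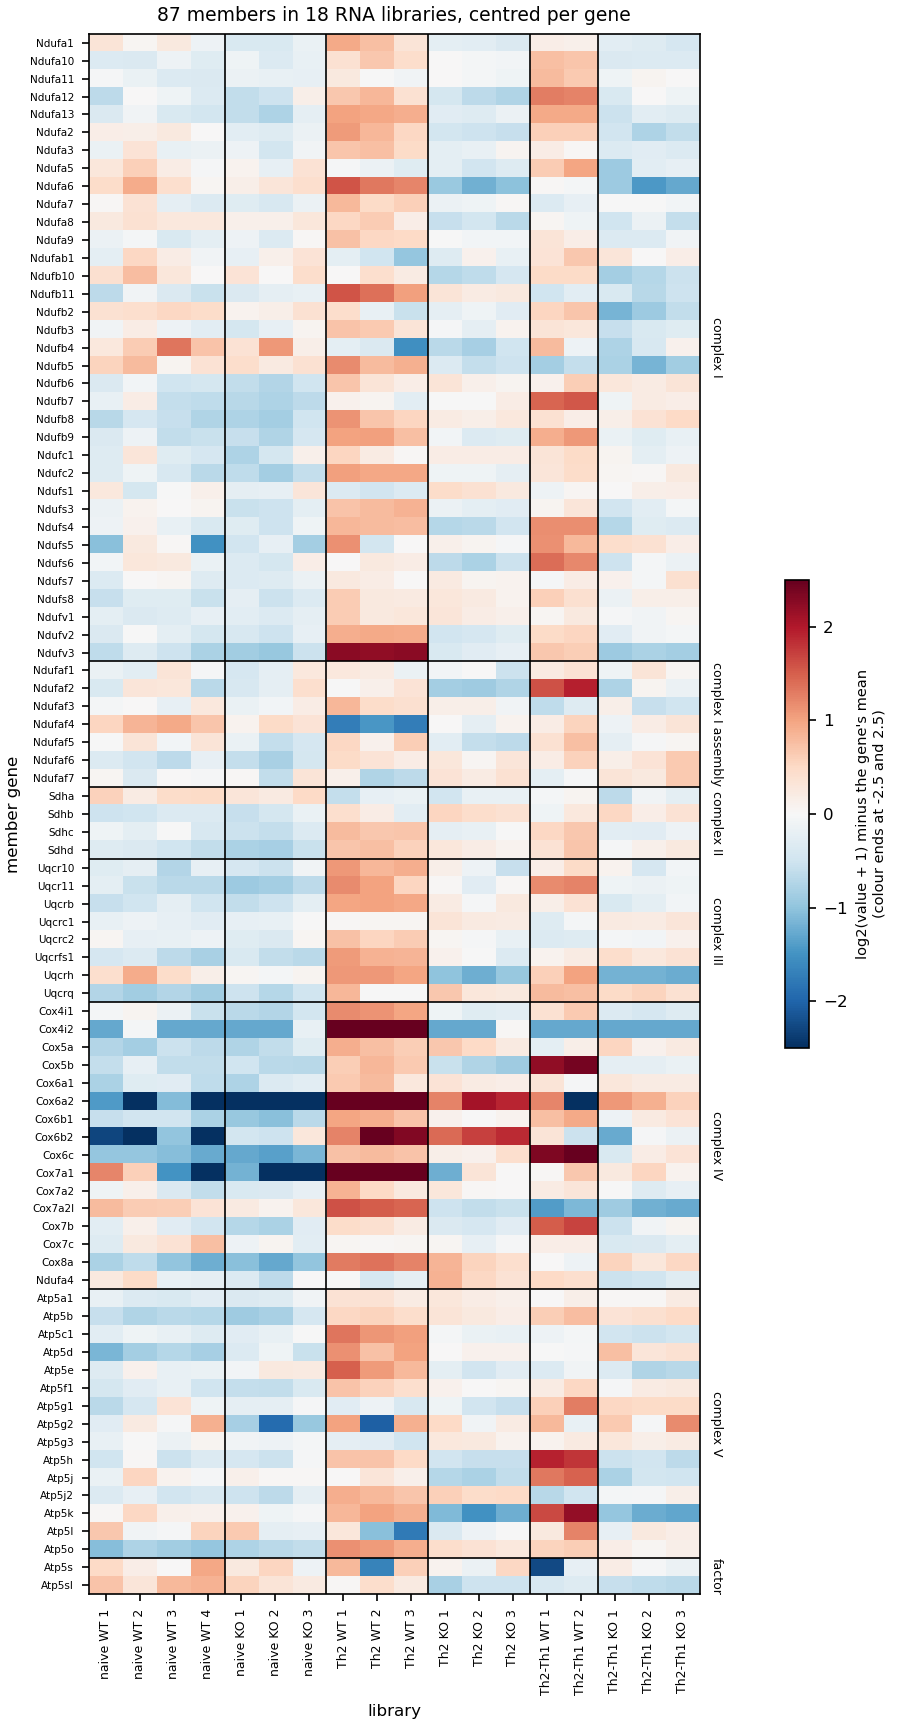
Log2(normalised read count + 1) of 87 of the 88 tested members in the 18 libraries, each gene centred on its mean over the libraries, ordered by complex. KO stands for libraries labelled Setdb1 KO; the 3 Th2 WT libraries are above the gene mean for most members, and in Th2-Th1 WT some members, such as Cox6c and Atp5h, are high while others, such as Cox7a2l, are low.

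Other genes of mitochondrial respiration were taken from lists chosen with earlier results known. Of 18 genes of the TCA cycle and pyruvate dehydrogenase, 5 were lower and 5 higher in Th2 KO than in WT, with a median of -0.13, where 24.7% of all genes were lower and 29.3% higher. Idh3b, a subunit of isocitrate dehydrogenase, was lower at -1.35 (2215 against 5662). Of 37 tested subunits, carriers and assembly factors outside the naming rule, 10 were lower and 8 higher. Both lists are near those shares. They include Usmg5, a subunit of the ATP synthase, at -1.38, Uqcc2, an assembly factor of complex III, at -1.30, and Cox10, which makes heme for complex IV, at 1.10. Mitochondrial ribosomal protein genes were lower for 41 of 80 and higher for 11, with a median of -0.39. Of 86 cytosolic ribosomal protein genes, 72 were lower and 6 higher, with a median of -1.83.

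Of 16 regulators of mitochondrial biogenesis, 8 were higher and 1 lower in Th2 KO, with a median of 0.31. Over all genes tested, 29.3% were higher and 24.7% lower. Pprc1, a coactivator of respiratory genes, averaged 535 in KO and 120 in WT, a log2 difference of 2.15 ± 0.26 (SE; adjusted p = 7.62e-07). Its relative Ppargc1b averaged 35.1 and 8.28. Yy1, a transcription factor, was the lower one, at -0.70. In WT cells the same list had 8 genes that fell and 2 that rose from naive to Th2. Of all genes tested, 33.1% fell and 32.8% rose. Ppargc1b and Pprc1 fell by 3.89 and 1.56. The 37 mitochondrially encoded genes of the table had 0 reads in every library, so the subunits they encode were not measured.

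Gene length was set beside the differences. Members have a median gene length of 7394 bases, and tested genes 19325.5. Across 16222 tested genes with a length, 94.0% of those tested, the rank correlation between length and the Th2 KO minus WT difference was 0.148, as a description across genes, which are not independent. The shortest 4056 of these genes had a median difference of -0.24, beside 0.13 for all of them and -0.66 for the members. The part of gene length in the members' differences was not tested.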

How the data were processed

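The deposited RNA table holds read counts divided by a size factor per library, a normalised signal; DESeq is named in the submitters' processing notes without a role. Multiplying back gave whole reads for 100% of values within 0.01 in all 18 libraries, so the authors' counts per gene were recovered for the count-based alternatives and for shares. The submitters' processing notes name cutadapt 1.3, TopHat2 2.0.5, BWA 0.7.10, MACS2 2.1.0, DESeq and the build mm10. The sources used here do not name the gene annotation, the handling of strand or any pooling of replicates before peak calling, so antisense, overlapping and near-identical genes (Atp5g2, Atp5l, Ndufb4 and Cox7c among the members) are uncertain. Peak lists carry the authors' score per peak, a fold enrichment and deposited -log10 p values; position was used, and the score only for an alternative.

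Differences were fitted with limma 3.58.1 in R 4.3.3 (trend on) on log2(value + 1) over 6 groups, with 12 residual degrees of freedom, for the 17254 genes that reached 10 in 2 or more libraries, and p-values were adjusted by Benjamini-Hochberg over all of them. A fold on this scale understates the change of low genes. The script was tested on simulated data. Comparisons were KO minus WT in each condition, Th2 minus naive and Th2-Th1 minus Th2 within a label, and 2 interactions. Promoter windows are RefSeq's (GRCm38.p6); for members without a window the whole gene was used. edgeR 4.0.16 and DESeq2 1.42.0 on recovered reads, other pseudocounts, filters and scalings, a replicate block and leaving out each library were alternatives. Leaving out 3 naive libraries and scaling to total reads were added after seeing the data.

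The members and lists were chosen with earlier results of these data known. Named by rule were the isoform sets, core subunits, and in each role and comparison up to 2 called members each way with the largest change, a mean of at least 50 and groups that do not overlap; of the other lists, up to 2 genes each way. Values of a named member are given in other comparisons too. Same-numbered libraries were checked for pairing: of 40 pairs, 1 had a correlation of deviations over 0.1 (median 0.0103), so they were not treated as paired. No 2 replicates agreed within sampling noise. Values of some genes that the rule names are not reported here.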

Additional observations from a re-analysis of the deposited data

Results flagged for a closer look

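The level of Cox5b in naive WT replicate 2 was 533, far from the other 3 naive WT libraries at 398 to 405. The level of Cox4i2 in the same library was 1.37, where the other 3 were at 0, so it rests on a read or so. These are 2 flags among 63 groups of 4 libraries examined, and chance flags about 1 in 20.

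A genotype difference that itself differed between naive and Th2 cells, by the interaction test in limma, was seen for 14 members named by the rule; these repeat the choice of the rule and are no independent support. On the log2 scale the Th2 difference was more negative than the naive one for Ndufv3 (-2.31), Ndufa6 (-2.25), Atp5k (-1.98), Atp5e (-1.74), Cox7a2l (-1.68), Uqcrh (-1.65), Cox5b (-1.32), Uqcr10 (-1.15), Ndufaf2 (-1.03) and Sdhc (-0.56). It was more positive for Ndufaf4 (2.06), Ndufa4 (1.21), Ndufs1 (0.77) and Atp5g3 (0.56). With scaling to total reads the interactions of Sdhc, Uqcr10 and Ndufaf2 no longer passed the test, and without the 3 naive libraries that stood apart those of Ndufs1 and Ndufaf2 did not.

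A genotype difference that differed between Th2 and Th2-Th1 cells was seen for 16 members. It was more negative after the switch for Cox6c (-1.93), Ndufaf4 (-1.85), Ndufa4 (-1.71), Ndufb7 (-1.51), Ndufb2 (-1.41), Atp5h (-1.24), Atp5j (-1.12) and Ndufaf2 (-1.06). It was more positive for Cox7a2l (2.22), Atp5d (1.38), Ndufa6 (1.22), Ndufb5 (1.21), Uqcrfs1 (1.21), Cox8a (1.20), Atp5e (1.08) and Uqcrc2 (1.01). The value of Ndufaf2 fell short of the threshold when most single libraries were left out.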

How the results depend on the processing

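Over the 333 differences computed for named members, 5565 values under other settings kept direction and side of the threshold in 5264, fell short of it in 222, newly passed it in 75 and turned direction in 4. The 4 that turned did so with scaling to total reads: for Th2 KO minus WT, Atp5a1 to 0.36, Cox7a2 to 0.041 and Ndufv1 to 0.29, and for WT Th2 minus naive, Uqcrc1 to -0.25. By its construction this scaling adds the same amount to every gene of a library. With it the median of all genes was 0.53 for Th2 KO minus WT and -0.59 for WT Th2 minus naive.

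Counts of members called moved by over 1.5 times as follows. In naive cells, 2 members higher in KO became 0 with only the contrasted groups and 1 without the 3 naive libraries that stood apart; 6 lower became 2 with no filter, 10 with DESeq2, 10 with the replicate block, 0 with only the contrasted groups and 1 without those 3 libraries. In Th2 cells, 5 higher became 8 with TMM scaling and 15 with scaling to total reads, and 53 lower became 34. In Th2-Th1 cells, 5 higher became 3 with no filter and 13 with scaling to total reads. For WT Th2 minus naive, 10 lower became 6 without those 3 libraries and 19 with scaling to total reads. For the KO switch, 3 higher became 8 with only the contrasted groups. For the interaction with Th2 culture, 4 positive became 12 and 42 negative became 22 with scaling to total reads. The cause of the other moves was not tested.

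With 1 library left out, members higher and lower ranged from 1 to 2 and 0 to 14 (naive KO minus WT), 4 to 8 and 51 to 54 (Th2), 2 to 4 and 32 to 39 (Th2-Th1), 58 to 64 and 5 to 10 (WT Th2 minus naive), 31 to 41 and 10 to 15 (KO Th2 minus naive), 16 to 21 and 24 to 34 (WT switch), 2 to 5 and 8 to 10 (KO switch), 4 to 5 and 34 to 42 (interaction with Th2 culture) and 17 to 21 and 12 to 17 (interaction with the switch). The libraries behind moves of over 1.5 times that the comparisons above did not name are Th2 WT replicate 1 for the 8, and Th2-Th1 WT replicate 1 (3), WT replicate 2 (3) and KO replicate 1 (2) for the 5 higher in Th2-Th1 cells. A lone Th2-Th1 WT library is assumed to vary like the other groups.

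Member windows with an H3K4me1 peak moved from 52 to 30 (naive WT), 24 to 11 (Th2 WT), 12 to 5 and 15 to 7 (the separate WT and KO lists) with peaks at or above the median score, and from 12 to 4 and 15 to 2 with 150 bases of overlap. The Th2 WT share moved to 1.09% without ribosomal reads. The shallowest library holds 10.0 M reads (M is 1000000). A member at 0 in a library was not detected at its depth, which does not show that it is absent.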
